A study of Mus musculus with 6 samples.

Results

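Neurexophilins, neurexins, and neuroligins are proteins of the synaptic cleft and of the membranes on its sides. Neurexins are adhesion molecules of the presynaptic membrane, and neuroligins are their partners on the postsynaptic membrane. Neurexophilins are small secreted glycoproteins that bind the long alpha form of neurexins. In the mouse cerebellum, *Nxph1* is known as a marker of a class of molecular layer interneurons, the inhibitory cells that contact Purkinje cells and each other. The 9 genes described here were *Nxph1*, *Nxph2*, *Nxph3*, *Nxph4*, *Nrxn2*, *Nrxn3*, *Nlgn1*, *Nlgn2*, and *Nlgn3*, found by their symbols among the 53715 genes of the count table. They were chosen by the measured counts of *Nxph1*, which were lower in *Slc39a8*-NSKO mice in the very comparison made below. The comparison of these 9 genes is therefore given as a description, with intervals and without p values.

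RNA from the cerebellum of 6 male mice that were 4 weeks old was sequenced, 3 control and 3 *Slc39a8*-NSKO, all labelled as the C57BL/6 strain, for which the methods give C57BL/6J parents, with no treatment named in the labels. *Slc39a8* encodes a transporter for manganese, zinc, and iron. In *Slc39a8*-NSKO mice its floxed alleles are targeted by Cre recombinase under the synapsin I promoter. This promoter is active in neurons, so that glia and blood vessels of the sampled tissue are not targeted. The study names as a limit that this Cre may vary in expression across brain regions. The counts of whole cerebellum do not give the extent of removal in each type of neuron. The sample labels call the control mice WT, whereas the methods of the study name *Slc39a8* fl/fl mice as controls, and the counts do not settle which of these they were. The study asked which transcripts of the cerebellum differ when neurons lack *Slc39a8*.

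The mice had 14431260 to 20844267 counts on genes. Values are given as counts and as CPM, the counts relative to library size after scaling with edgeR's TMM method. *Slc39a8* itself had 99, 46, and 44 counts in controls 1 to 3, against 38, 40, and 41 in *Slc39a8*-NSKO animals 1 to 3. Its groups did not overlap, but control mouse 1 stood above the other 5 mice, and the log2 fold change of −0.83 (SE 0.237) was not past the threshold (adjusted p = 0.534, edgeR quasi-likelihood test). Defining transcripts of cerebellar cells were abundant, with a summed level of 3451–3815 CPM for 5 granule cell genes and 5706–6862 CPM for 5 Purkinje cell genes, and the 5 forebrain genes summed to 1.542–2.703 CPM. This forebrain sum was lower in every control (1.542–2.172 CPM) than in any *Slc39a8*-NSKO animal (2.362–2.703 CPM).

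The 4 neurexophilin genes are paralogs, so the question of which gene a read belongs to comes before their values. Their coding sequences are most alike near the end of the coding sequence, in the last exon, in a window of 60 coding bases in which 39 positions are identical in all 4 genes. The windows are shown because they are the stretch most alike over the 4 genes and so bear on whether a read of *Nxph1* could be counted for another member. They lie, in GRCm38, at chr6:9247772-9247831 on the plus strand in *Nxph1*, at chr2:23400349-23400408 on the plus strand in *Nxph2*, at chr11:95510843-95510902 on the minus strand in *Nxph3*, and at chr10:127526115-127526174 on the minus strand in *Nxph4*, and each is part of a coding exon. Capitals mark the bases that differ from *Nxph1*, of which there are 10 in *Nxph2*, 11 in *Nxph3*, and 14 in *Nxph4*.
Nxph1: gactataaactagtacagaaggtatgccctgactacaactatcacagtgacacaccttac
Nxph2: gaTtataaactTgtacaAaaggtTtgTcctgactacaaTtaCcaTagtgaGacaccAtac
Nxph3: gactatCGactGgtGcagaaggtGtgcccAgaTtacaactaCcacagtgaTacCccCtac
Nxph4: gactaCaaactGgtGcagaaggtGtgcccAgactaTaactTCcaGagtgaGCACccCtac

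Over the whole coding sequence, *Nxph1* shared 63.7% of its aligned bases with *Nxph2*, 60.5% with *Nxph3*, and 54.8% with *Nxph4*. The longest stretch identical between *Nxph1* and another neurexophilin was 17 bases, against reads of 150 bases. The deposited counts of *Nxph1*, *Nxph3*, and *Nxph4* were whole numbers in every mouse, as counts are when no read is divided between genes. *Nrxn2*, *Nlgn1*, and *Nlgn3* had a count that was not whole in at least 1 mouse. Between neurexins and between neuroligins the longest identical stretch was 23 bases. *Nrxn2*, *Nrxn3*, *Nlgn1*, and *Nlgn3* share exon bases with at least 1 other annotated gene, and whether the counting used the strand of the reads is not given in the sources used here.

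*Nxph1* (ENSMUSG00000046178.3, chr6:8948431-9249032, plus strand) was the member with the large difference. Controls 1 to 3 had 346, 186, and 217 counts, against 150, 152, and 146 in *Slc39a8*-NSKO animals 1 to 3. Scaled to library size, these were 16.7, 12.9, and 13.9 CPM in control mice and 7.51, 7.80, and 7.76 CPM in *Slc39a8*-NSKO mice. Every *Slc39a8*-NSKO mouse was below every control mouse, and control mouse 1 was the highest of all. The mean level was 14.5 ± 1.95 CPM in control and 7.69 ± 0.158 CPM in *Slc39a8*-NSKO mice (SD, n = 3 each). The log2 fold change was −0.92 (SE 0.1225), so that the level in *Slc39a8*-NSKO mice was 52.7% of that in control mice, with a 95% interval of 43.9–63.3%.

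*Nxph1* was called lower at an adjusted p below 0.05 in the test over all genes, as were 0.0735% of the 16330 genes tested, and 0.098% were called in either direction. Nothing is read from this call, since it was the basis of the choice. Of all genes tested, 5.26% had every *Slc39a8*-NSKO mouse below every control mouse and 5.07% had every one above. The 3 *Slc39a8*-NSKO mice had a spread of 2.055% of the mean, under the counting error of 8.183%. The control mice had a spread of 13.41% against a counting error of 6.329%. The call was lost when *Slc39a8*-NSKO mouse 2 was left out (log2 fold change −0.93), and without control mouse 1 the log2 fold change was −0.80. In bulk tissue, fewer cells that express a gene and less RNA of it per cell cannot be told apart.

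The other neurexophilins did not have such a difference. *Nxph2* (chr2:23321246-23401973, plus strand) had 0 counts in all 6 mice. In a single library taken alone, a true level of up to 3 counts cannot be told from none. The 0 counts in all 6 mice put the bound for their mean level lower than that. *Nxph3* (chr11:95509845-95514570, minus strand) had 336, 236, and 223 counts in the controls, against 290, 295, and 293 in the *Slc39a8*-NSKO animals. *Nxph4* (chr10:127525473-127534559, minus strand) had 401, 242, and 291 counts in the controls, against 403, 348, and 357 in the *Slc39a8*-NSKO animals. The groups overlapped for both genes when scaled to library size. *Nxph3* was at 15.65 ± 1.15 CPM in control and 15.08 ± 0.527 CPM in *Slc39a8*-NSKO mice, or 96.2% of control (95% interval 83.5–111.0%). *Nxph4* was at 18.29 ± 1.31 and 19.0 ± 1.155 CPM, or 103.6% of control (95% interval 90.5–118.7%).

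**Figure D1:**
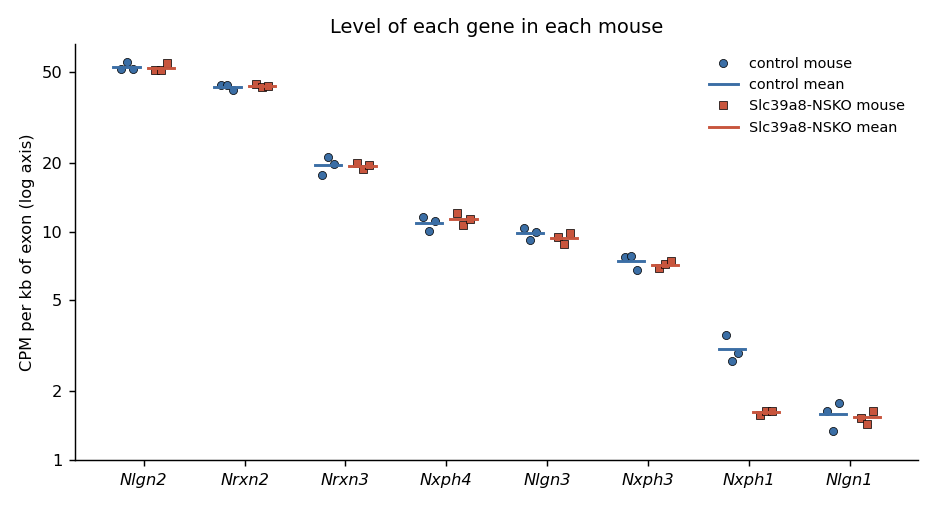
Level of 8 genes in each mouse, in CPM per kb of exon on a log axis, with circles for control mice, squares for *Slc39a8*-NSKO mice, and bars for the mean of each group of 3. *Nlgn2* and *Nrxn2* are at the top and *Nlgn1* is at the bottom, and of the 8 genes *Nxph1* is the one whose groups do not overlap. *Nxph2* had no counts and cannot be drawn on a log axis.

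With *Nxph1* lower while *Nxph3* and *Nxph4* overlapped between the genotypes, the shares within the family differ by arithmetic. These shares hold the *Nxph1* counts that were the basis of the choice, so they are not a further result. Per kb of exon, *Nxph1* was 15.4%, 13.2%, and 14.02% of the neurexophilin RNA in control mice and 7.69%, 8.41%, and 8.01% in *Slc39a8*-NSKO mice. The means were 14.2 ± 1.11% and 8.04 ± 0.36%. *Nxph4* was the largest part in both genotypes, with 50.95 ± 2.29% in control and 56.28 ± 2.09% in *Slc39a8*-NSKO mice, and *Nxph3* held 34.8 ± 2.80% and 35.7 ± 1.76%. The share of *Nxph1* depended on the length used for it, which is 4753 bases for all annotated exons together and 2815 bases for the longest transcript. With the longest transcript, *Nxph1* was 21.9 ± 1.55% in controls and 12.9 ± 0.545% in the *Slc39a8*-NSKO group.

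**Figure D2:**
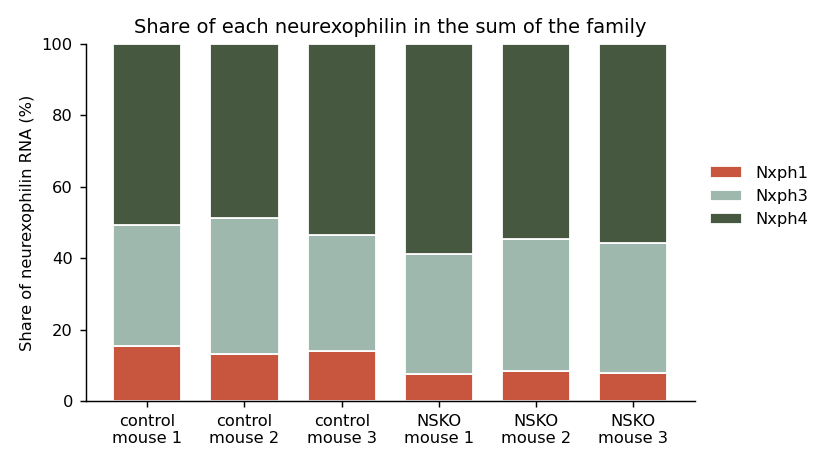
Share of *Nxph1*, *Nxph3*, and *Nxph4* in the sum of their levels per kb of exon, in percent, with 1 bar for each mouse. The *Nxph1* part is 13.2–15.4% in control mice and 7.69–8.41% in *Slc39a8*-NSKO mice.

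Of the neurexins, the receptors that neurexophilins bind, *Nrxn2* and *Nrxn3* were read here, and both overlapped between the genotypes. *Nrxn2* (chr19:6418731-6544169, plus strand) had 12587, 8733, and 9032 counts in the controls, against 12317, 11595, and 11298 in the *Slc39a8*-NSKO animals. *Nrxn3* (chr12:88722876-90334935, plus strand) had 4624, 3841, and 3886 counts in the controls, against 5061, 4619, and 4658 in the *Slc39a8*-NSKO animals. *Nrxn2* was at 598.4 ± 15.59 CPM in control and 604.0 ± 11.17 CPM in *Slc39a8*-NSKO mice, or 100.9% of control (95% interval 93.9–108.5%). *Nrxn3* was at 246.6 ± 22.13 and 246.0 ± 8.21 CPM, or 99.8% of control (95% interval 90.7–109.9%). These are counts over whole genes, and they do not separate the long alpha form that binds neurexophilins from the shorter forms made from other promoters. *Nrxn2* held 68.9% of the summed level per kb of *Nrxn2* and *Nrxn3* in controls and 69.2% in the *Slc39a8*-NSKO group.

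The neuroligins are bound by neurexins across the cleft. *Nlgn1* protein is found mainly at excitatory synapses, *Nlgn2* at inhibitory synapses, and *Nlgn3* at both. *Nlgn1* (chr3:25426215-26332460, minus strand) had 454, 259, and 371 counts in the controls, against 410, 374, and 416 in the *Slc39a8*-NSKO animals. *Nlgn2* (chr11:69823122-69837784, minus strand) had 6173, 4597, and 4664 counts in the controls, against 5901, 5791, and 5978 in the *Slc39a8*-NSKO animals. *Nlgn3* (chrX:101299168-101325963, plus strand) had 1997, 1233, and 1439 counts in the controls, against 1748, 1598, and 1726 in the *Slc39a8*-NSKO animals. None of the 3 was called, beside 0.098% of all genes tested, and the scaled values of their groups overlapped.

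*Nlgn1* was at 21.25 ± 2.97 CPM in control and 20.61 ± 1.45 CPM in *Slc39a8*-NSKO mice, or 96.7% of control (95% interval 82.9–112.9%). *Nlgn2* was at 305.8 ± 12.08 and 303.4 ± 12.27 CPM, or 99.3% (95% interval 91.7–107.4%). *Nlgn3* was at 91.53 ± 5.38 and 87.08 ± 4.84 CPM, or 95.03% (95% interval 86.4–104.5%). *Nlgn2*, the neuroligin of inhibitory synapses, made up 82.2% of the neuroligin level per kb in controls and 82.8% in the *Slc39a8*-NSKO group. *Nlgn3* made up 15.4% and 14.8%, and *Nlgn1* 2.47% and 2.42%.

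Over the 7 tested members other than *Nxph1*, the estimates ran from 95.03% to 103.6% of control and their 95% intervals reached from 82.85% to 118.7%. A smaller difference than these intervals allow was not detectable with 3 mice for each genotype. For comparison, the median log2 fold change of all 16330 genes was 0.0011, with the middle part of the distribution, from the lower to the upper quartile, at −0.08 to 0.07.

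**Figure D3:**
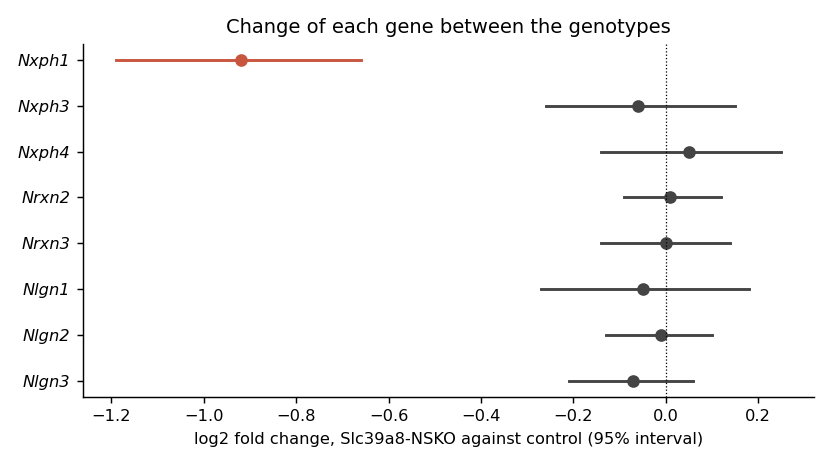
Log2 fold change of 8 genes in *Slc39a8*-NSKO against control mice, with points for the estimate of edgeR and lines for its 95% interval over 3 mice in each group. *Nxph1* is at −0.92, and the intervals of the other 7 genes contain 0.

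Per kb of exon, and over all 6 mice, *Nlgn2* had the highest level at 52.65 (51.07–55.26) CPM per kb, followed by *Nrxn2* at 43.53 (42.02–44.64), *Nrxn3* at 19.54, *Nxph4* at 11.13, *Nlgn3* at 9.633, *Nxph3* at 7.32, *Nxph1* at 2.337 (1.58–3.513), and *Nlgn1* at 1.559 (1.342–1.776). Of the 7 pairs of neighbours in this order, 5 did not overlap in any mouse. *Nxph4* and *Nlgn3* overlapped, and so did *Nxph1* and *Nlgn1* over all 6 mice. Within control mice, *Nxph1* (2.721–3.513) lay above *Nlgn1* (1.342–1.776), while within *Slc39a8*-NSKO mice they overlapped (1.58–1.642 and 1.431–1.646). *Nxph1* was at 3.056 CPM per kb in control mice and at 1.618 in *Slc39a8*-NSKO mice, where *Nlgn1* was at 1.535. The order was the same in both genotypes. When the length of the longest transcript was used, *Nrxn2* moved ahead of *Nlgn2*, with 90.17 against 54.7 CPM per kb, and the rest of the order was kept.

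Since *Nxph1* is a marker of molecular layer interneurons, 9 other genes of these cells were read beside it. They were listed for these interneurons as a whole and not for the class that *Nxph1* marks. None of the 9 was called by edgeR, beside 0.098% of all genes tested, and none had an unadjusted p below 0.05. DESeq2 and limma-voom called none of them either. With so small a share called over all genes, the lack of a call among 9 genes says little about them. Their summed level was 1124–1177 CPM in control and 1122–1210 CPM in *Slc39a8*-NSKO mice, and their median log2 fold change was 0.04. *Sorcs3*, which marks the class of molecular layer interneurons other than that of *Nxph1*, was at 19.26 CPM in control and 21.78 CPM in *Slc39a8*-NSKO mice, the highest log2 fold change of the list at 0.17 (SE 0.09267, edgeR adjusted p = 0.968). *Gjd2*, which encodes the gap junction protein connexin 36, had the lowest at −0.11 (SE 0.1177, edgeR adjusted p = 0.994), with 13.68 and 12.71 CPM.

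The receptor tyrosine kinase gene *Kit* was at 196.5 and 205.2 CPM (log2 fold change 0.06) and the kinase gene *Prkcd* at 71.41 and 74.55 CPM (0.06). The transcription factor gene *Tfap2b* was at 47.12 and 48.42 CPM (0.04), the phosphatase gene *Ptprk* at 26.87 and 27.54 CPM (0.04), and the cadherin gene *Cdh22* at 87.74 and 88.63 CPM (0.01). Of the genes that all inhibitory neurons use, *Gad1*, which makes GABA, was at 469.9 and 469.4 CPM (0.00), and *Slc32a1*, which loads GABA into vesicles, was at 210.5 and 216.5 CPM (0.04). The level of *Nxph1* was lower also when it was divided by that of a marker in the same mouse. The ratio in *Slc39a8*-NSKO mice was between 47.0% of that in control mice, for the ratio to *Sorcs3*, and 57.6%, for the ratio to *Gjd2*, and it did not overlap between the genotypes for any of the 9 markers. The ratio of *Nxph1* to each of the other 7 tested members was 51.2% to 55.9% of control and did not overlap either. These ratios share the *Nxph1* values that were the basis of the choice. How much of the difference in *Nxph1* came from the number of cells of its own class was not tested.

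**Figure D4:**
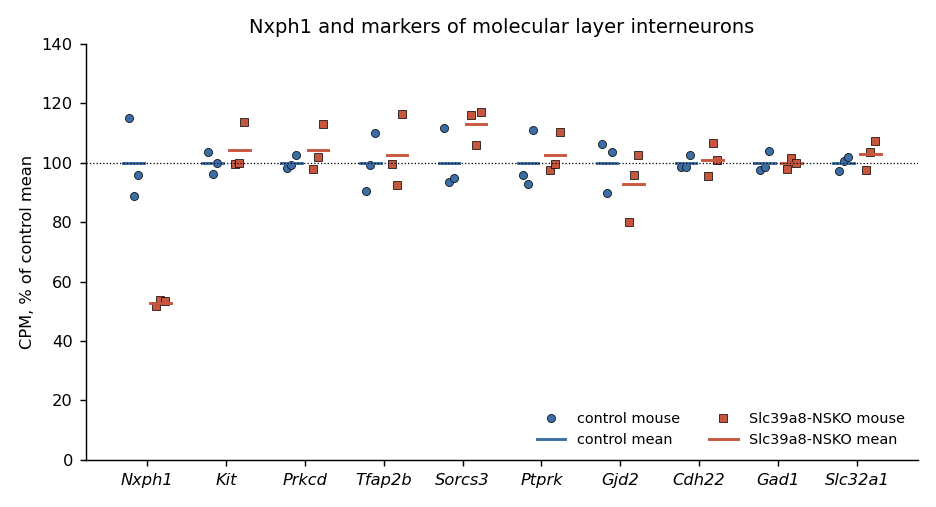
Level of *Nxph1* and of 9 other genes of molecular layer interneurons in each mouse, in percent of the control mean of that gene, with circles for control mice, squares for *Slc39a8*-NSKO mice, and bars for the group means. *Nxph1* is at 52.7% by the fitted fold change, while the markers lie around 100% and their groups overlap.

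Over all lists of cell type markers, 51 of 53 genes were tested and 0 were called by edgeR, beside 0.098% of all genes tested. In the edgeR test, 9 were at an unadjusted p below 0.05 and the smallest adjusted p was 0.228. DESeq2 and limma-voom called 0 of the markers. The summed levels of 3 lists did not overlap between the genotypes, the forebrain genes given above, which had few counts, and 2 lists of glia. How often the sums of such lists separate by chance was not computed. The 5 genes of Bergmann glia and astrocytes summed to 1899–2205 CPM in control and 2261–2317 CPM in *Slc39a8*-NSKO mice, and the 4 microglia genes to 48.19–54.10 and 56.57–60.93 CPM. All 5 and all 4 of these genes had a log2 fold change above 0, and 3 of the 5 and 1 of the 4 had every *Slc39a8*-NSKO mouse above every control mouse. Over all marker lists, 6 of the 51 genes tested had every *Slc39a8*-NSKO mouse above every control mouse and 0 had every one below, beside 5.07% and 5.26% of all genes tested. *Gfap*, an astrocyte filament gene named after its values were seen, had a log2 fold change of 0.40 (edgeR adjusted p = 0.301). The summed levels overlapped for Golgi cells (155.3 ± 7.136 and 159.7 ± 14.2 CPM, mean ± SD), and, given as ranges, for granule cells (3463–3728 and 3451–3815 CPM), Purkinje cells (5706–6649 and 6315–6862 CPM), and unipolar brush cells (154.9–191.5 and 146.8–169.0 CPM). They overlapped also for oligodendrocyte precursors (53.06–54.53 and 53.45–60.19 CPM), oligodendrocytes (6536–7510 and 6094–7390 CPM), endothelial cells (86.36–101.5 and 86.21–98.68 CPM), and choroid plexus (741.9–1072 and 869.1–1509 CPM). All 3 choroid plexus genes had a log2 fold change above 0, and *Folr1*, a folate receptor gene named after its values were seen, had the smallest adjusted p of all markers, with a log2 fold change of 0.96 and no overlap between the genotypes. The part of the lists of forebrain, glia, and choroid plexus in the value of *Nxph1* was not tested.

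Neurexins and neuroligins have many partners besides each other, and 68 such genes in 6 lists were read in the same test. Of these, 64 were tested and 0 were called by edgeR, beside 0.098% of all genes tested. In the edgeR test, 1 was at an unadjusted p below 0.05 and the smallest adjusted p was 0.908. DESeq2 and limma-voom called 0 as well. Their log2 fold changes were below 0 for 19 and above 0 for 45 genes, with a median of 0.03 beside 0.0011 for all genes tested. Among the 55 partner genes with at least 10 CPM, the log2 fold changes were between −0.12 and 0.22. Of the 64, 1 gene had every *Slc39a8*-NSKO mouse below every control mouse and 2 had every one above, beside 5.26% and 5.07% of all genes tested.

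The other extracellular ligands of neurexins, of which 21 of 24 were tested, had a median log2 fold change of 0.02. The cerebellin encoded by *Cbln1* is secreted by granule cells and binds neurexins in the synaptic cleft. *Cbln3*, another cerebellin gene and the gene with the highest CPM of the list, was at 1562 CPM in control and 1615 CPM in *Slc39a8*-NSKO mice. *Cbln1*, chosen for its role after its values were seen, was at 996.5 ± 41.6 and 1012 ± 24.1 CPM, with a log2 fold change of 0.02. Both overlapped between the genotypes. The ends of the list were genes of few counts. *Cbln4* had 68, 12, and 16 counts in the controls, against 32, 17, and 16 in the *Slc39a8*-NSKO animals, the lowest log2 fold change of the list at −0.68, and its high value in control mouse 1 stood apart. *Fam19a1* had 14, 4, and 8 counts and 12, 8, and 16 counts, the highest at 0.29. *Fam19a2*, also chosen after its values were seen, was the partner gene with every *Slc39a8*-NSKO mouse below every control mouse, with 79, 38, and 40 counts and 46, 49, and 43 counts before scaling and a log2 fold change of −0.36.

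The 6 cytoplasmic partners of neurexins, scaffold proteins of the presynaptic side, had a median of 0.05. Among them *Apba1* had the highest CPM (190.6 and 195.9 CPM), *Lin7a* the highest log2 fold change (0.14), and *Lin7b* the lowest (−0.03). The 12 scaffolds and modulators of neuroligins had a median of 0.02. *Shank1*, a scaffold of excitatory synapses, had the highest CPM (442.6 and 455.2 CPM), *Shank2* the highest log2 fold change (0.16), and *Mdga1*, whose protein binds neuroligins and keeps neurexins from them, the lowest (−0.12).

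The 4 genes that splice neurexin transcripts or shed the proteins from the membrane had a median of −0.01. *Khdrbs1* had the highest CPM (149.1 and 144.4 CPM), *Khdrbs2* the highest log2 fold change (0.04), and *Khdrbs3* the lowest (−0.09). These are RNA-binding proteins that act on neurexin splicing. The LAR-type organizers are synaptic receptors that work in parallel to neurexins, and 19 of 20 genes of this list were tested, with a median of 0.06. *Ptprs*, a receptor phosphatase, had the highest CPM (353.9 and 339.2 CPM), *Lrfn2* the highest log2 fold change (0.41, from 10 to 26 counts in a mouse), and *Il1rapl1* the lowest (−0.22). *Slitrk1* and *Lrfn1*, chosen after their values were seen, had every *Slc39a8*-NSKO mouse above every control mouse, with log2 fold changes of 0.18 (edgeR adjusted p = 0.908) and 0.12.

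**Figure D5:**
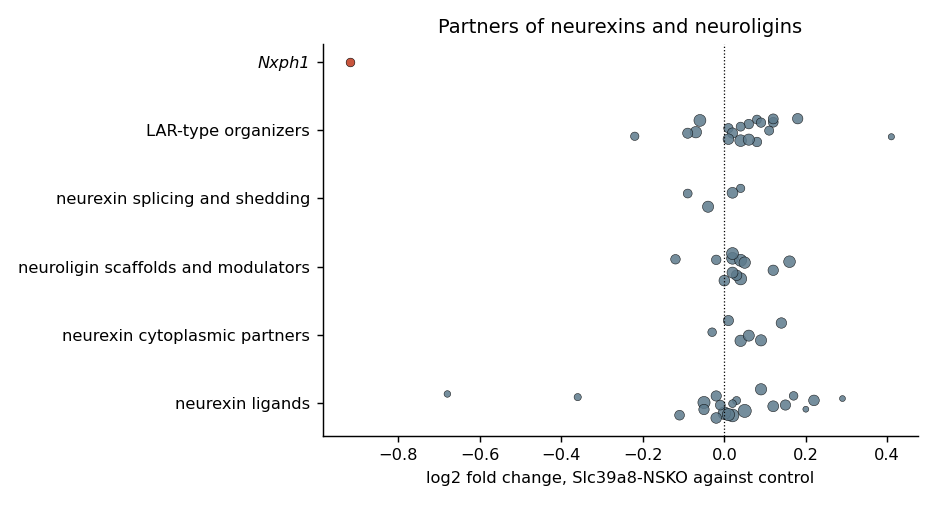
Log2 fold change in *Slc39a8*-NSKO against control mice of the tested partner genes of 5 lists, with *Nxph1* at the top for reference, and with larger points for genes of higher mean CPM. The points of the lists lie between −0.68 and 0.41, and the ones farthest from 0 are small.

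Among the 5 genes whose levels ran most like that of *Nxph1* over the 6 mice were *Mfsd13a* (r = 0.990), *Trp53i13* (r = 0.983), *Lrrc29* (r = 0.981), and *Gm37755* (r = 0.973), by Pearson's r of log2 CPM over 14825 genes of at least 1 CPM. The r includes the difference between the genotypes, and 23 genes had an r of at least 0.95, so that it is a description of these 6 libraries. None of these 4 was called by edgeR, with log2 fold changes of −0.16, −0.29, −0.47, and −0.46 in the same order. When the deviations from the genotype means were used, 0 of the 5 remained among the 5 most alike.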

How the data were processed

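Total RNA of the cerebellum, 3 mice per genotype, was made into cDNA with oligo-dT and sequenced as paired-end reads of 150 bases. The submitters' processing notes name FastQC, STAR, RSEM, DESeq2, and mm10, without versions. The authors deposited expected counts per gene and mouse, without normalization. All value columns were used. The methods state 3 mice for each genotype, while a legend speaks of technical triplicates. If the latter holds, the spread is technical. Chi-square per degree of freedom between libraries was 3.97–9.422, more than counting error alone gives, so none was another library sequenced again. Separate libraries made from the same RNA can also differ by more than counting error, so these values do not settle which statement holds.

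The counts were rounded and 92 spike-in rows, with 0 to 5 counts in all per mouse, were left out. edgeR 4.0.16 (R 4.3.3; TMM, filterByExpr, glmQLFit, glmQLFTest) tested 16330 genes, with Benjamini-Hochberg adjustment and a threshold of 0.05. TMM factors were 0.9954–1.004. The test was tried on simulated data. Names, lengths, and positions came from GENCODE for GRCm38, and coding sequences were aligned with mafft 7.526. Levels per length used the union of exons.

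The members and lists were chosen with earlier results of these data known. Genes named were the 9 members, *Slc39a8*, the highest level and both extremes of each partner list, all markers of molecular layer interneurons, and the genes most like *Nxph1* of at least 1 CPM. A few results that this rule names are not reported here. The fold change of a low gene depends on edgeR's prior count. Alternatives were DESeq2 1.42.0, limma-voom (limma 3.58.1), RLE, library size alone, no filter, at least 10 counts in every mouse, unrounded counts, the replicate number as a block, and each mouse left out. For levels and likeness, the longest transcript, library size alone, and deviations from the genotype means were used.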

Additional observations from a re-analysis of the deposited data

How the results depend on the processing

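*Nxph1* was the 1 member called under every alternative except without *Slc39a8*-NSKO mouse 2, where 0 members were called, and its log2 fold change was −0.93 to −0.92 under the alternatives that kept all mice and came closest to 0 without control mouse 1 (−0.80). No partner gene was called under any of them. The number of genes called in all, 16, was 37 with DESeq2 and 178 with no filter, and 9 to 38 with each mouse left out (9 without *Slc39a8*-NSKO mouse 2, 38 without control mouse 1). Of the markers, 6 were called with no filter (*Eomes* lower, and *Folr1*, *Gfap*, *Itpr1*, *Kl*, and *Ttr* higher). With each mouse left out, 0 to 1 were called (*Itpr1*, higher, without control mouse 1). The cause of these shifts was not tested. With the replicate number as a block, 41 genes were called in all, among them *Nxph1* at a log2 fold change of −0.92 and 1 marker, *Gfap*. The deviations of mice with the same number correlated at 0.142, 0.116, and 0.010, against −0.177 to 0.067 for mice with unlike numbers. Control mouse 3 correlated best with *Slc39a8*-NSKO mouse 1 (0.036). Whether mice with the same number belong together is not given in the labels, and pairing is neither shown nor excluded. Members near 0 changed sign under some alternatives, *Nrxn3* under 3, *Nlgn2* under 2, and *Nrxn2* and *Nlgn1* under 1, and none moved past the threshold. With deviations from the genotype means, 0 of the 5 genes most like *Nxph1* remained. The order of levels kept 5 to 6 separate neighbours with each mouse left out, and 6 with the longest transcript.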
